A study of Mus musculus with 9 samples.

Results

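The 10 genes described here mark the melanocyte lineage and its pigment: the transcription factors Mitf, Sox10 and Pax3, the melanin enzymes Tyr, Tyrp1 and Dct, the melanosome antigens Pmel and Mlana, the melanocortin receptor Mc1r and the melanosomal transporter Oca2. They were chosen by name, and all 10 were found among the 10762 genes of the deposited table. Messenger RNA had been sequenced in 9 libraries of B16.SIY, mouse melanoma cells from a C57BL/6 background that were grown in culture and express the SIY model antigen with dsRED. There were 3 stable, puromycin-selected lines of 3 libraries each: a line with shRNA1 against Decr2 (TRCN0000042099), a line with shRNA2 against Decr2 (TRCN0000042100) and a line with a control hairpin (SHC002). All lines therefore carry a lentiviral hairpin and the SIY antigen. The labels do not say whether a line is 1 clone. The sample titles end in a replicate digit, 0, 1 or 2, and no label says what the digit stands for or whether the libraries came from separate cultures, so the p-values below rest on a spread among libraries that could be technical.

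Melanin is made in melanosomes, organelles related to lysosomes. SOX10 and PAX3 activate the Mitf gene, and MITF, a basic helix-loop-helix protein, binds the M box in the promoters of pigment genes. TYR carries out the rate-limiting oxidation of tyrosine, DCT converts dopachrome, and TYRP1 acts later in eumelanin synthesis in the mouse. PMEL forms the fibrils on which melanin is laid down, MLANA is a small membrane protein of the melanosome, OCA2 helps to set melanosomal pH, and MC1R signals through cyclic AMP to raise Mitf. Several of these proteins are antigens for T cells in melanoma.

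The M box core, which MITF is known to bind, is shown with the T before it for 4 members. These 4 carry that longer form in the 250 bases before their RefSeq start. Each sequence is from RefSeq on assembly GRCm38.p6, 5′ to 3′ on the strand of the gene and wholly upstream of the RefSeq start, which for Tyrp1 lies inside the gene span given below from GENCODE. Capitals mark TCATGTG, the core CATGTG with the T before it.
Tyr, chr7:87493513-87493569, minus strand: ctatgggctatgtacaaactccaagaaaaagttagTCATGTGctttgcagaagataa
Tyrp1, chr4:80834131-80834187, plus strand: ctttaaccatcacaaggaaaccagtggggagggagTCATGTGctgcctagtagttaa
Dct, chr14:118052376-118052432, minus strand: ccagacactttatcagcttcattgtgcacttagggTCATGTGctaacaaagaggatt
Mc1r, chr8:123406995-123407051, plus strand: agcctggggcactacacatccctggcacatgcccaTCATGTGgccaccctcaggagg

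The capitals begin 22 bases before the RefSeq start in Tyr, 47 in Tyrp1, 151 in Dct and 52 in Mc1r, and Dct has a further match on the other strand 232 bases before its start. Windows from 250 bases before to 50 bases after the start were searched on both strands. RefSeq windows were matched for 6 members (Tyr, Tyrp1, Dct, Mc1r, Mitf and Oca2), and TCATGTG was in 4 of them; the 3 Mitf windows and the Oca2 window held no match. The same letters were in 3.77% of all 32851 promoter windows, and in 2.45% of the 8598 genes of the table with a window. CATGTG, which lies inside TCATGTG, was in the windows of 5 members, Oca2 being the fifth, against 9.82% of the genes of the table. CACGTG (12.2% of those genes) and AACAAT (6.80%) were found in no member window. These matches describe letters and not bound sites. Pax3, Sox10, Pmel and Mlana are named only.

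Values are the authors' log2 expression values. Differences between groups are log2 differences, and values are compared within a gene and not between genes, since the sources do not say whether transcript length was taken into account. The target of the hairpins was checked first. Decr2, on chromosome 17 from 26081208 to 26090337 on the minus strand in GRCm38, averaged 2.85 ± 0.34 with shRNA1, 1.19 ± 0.36 with shRNA2 and 3.92 ± 0.19 with the control hairpin (log2, SD, n = 3 each), and it fell by 1.07 with shRNA1 and by 2.73 with shRNA2 (limma adjusted p = 0.0195 and 0.000568), with all 6 Decr2 hairpin libraries below every control library. Digit 0 stood apart in each group. Within a group, digits 1 and 2 correlated across genes at 0.992 to 0.994 and digit 0 with either at 0.966 to 0.986. Of 42 marker genes of immune, stromal, endothelial, epithelial, erythroid and retinal pigment cells only Lck, Col1a1, Pdgfrb and Plvap were listed. At digits 0, 1 and 2, Col1a1 had log2 values of 1.59, 1.23 and 0.97 with shRNA1 and 1.31, 0.42 and 0.56 with shRNA2. With the control hairpin it had 1.14, -1.13 and -1.33. Over the 9 libraries Lck ran from 1.14 to 1.80, Pdgfrb from 2.565 to 3.75 and Plvap from 1.22 to 2.44.

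Across all digits, few members passed the test between the Decr2 hairpin lines and the control line. The counts called are near the shares of all genes given beside them. In a limma test over all genes with Benjamini-Hochberg adjustment and a threshold of 0.05, 1 of the 10 members was called with shRNA1, where 12.4% of all genes were called, and 0 of 10 with shRNA2, where 12.9% were. The member called was Pax3, which was lower. In these cultured lines, fewer pigmented cells and less RNA of these genes per cell cannot be told apart. At an unadjusted p under 0.05, 2 members passed with shRNA1, where 28.7% of all genes did, and 0 with shRNA2, where 29.3% did. The median member differed from control by -0.21 with shRNA1 and by -0.14 with shRNA2 (log2), and the medians over all genes were 0.00179 and 0.0046. In the average of both hairpins 1 member was called (Pax3, lower), against 17.6% of all genes. Fitting the replicate digit as a block raised these counts to 2 members with shRNA1 (24.6% of all genes), 2 with shRNA2 (24% of all genes) and 2 in the average (30.3% of all genes).

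Pax3, a paired-box factor of the neural crest upstream of Mitf, lies on chromosome 1 from 78101267 to 78197134 on the minus strand. It had log2 values of 6.91, 6.78 and 6.81 with shRNA1 (digits 0, 1 and 2), 7.20, 7.03 and 7.12 with shRNA2, and 7.22, 7.32 and 7.29 with the control hairpin. All 6 Decr2 hairpin libraries were below every control library, as in 10.9% of all genes, and all shRNA2 libraries were above every shRNA1 library, as in 7.72%. With shRNA1 Pax3 fell by 0.44 (SE 0.07, limma adjusted p = 0.0079), and the call held with each library left out in turn (adjusted p from 0.00529 to 0.0461). The authors' deposited table also gives Pax3 as lower with shRNA1, with an adjusted p of 0.00878. With shRNA2 the difference was -0.16 (SE 0.07, adjusted p = 0.19). In the average Pax3 fell by 0.30 (SE 0.06, adjusted p = 0.0134), and leaving out control replicate 1 (adjusted p = 0.0779) or control replicate 2 (adjusted p = 0.0708) ended that call. The difference of shRNA2 over shRNA1 was 0.29 (95% interval 0.12 to 0.45, adjusted p = 0.181).

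Mitf, the lineage regulator, spans chromosome 6 from 97807052 to 98021349 on the plus strand. Its log2 values were 9.53, 8.87 and 8.84 with shRNA1, 9.65, 8.80 and 8.82 with shRNA2, and 9.55, 9.05 and 9.05 with the control hairpin, each in the order of digits 0, 1 and 2. In every group the library of digit 0 stood above the other two, and the groups overlapped. Sox10, on chromosome 15 from 79154908 to 79165240 on the minus strand, had 8.60, 8.07 and 8.15 with shRNA1, 8.52, 8.01 and 7.97 with shRNA2, and 8.56, 8.39 and 8.42 with the control hairpin. The libraries of digit 0 were again the highest of each group, and at digits 1 and 2 both Decr2 hairpin lines were below control. Over all digits, Sox10 differed from control by -0.19 with shRNA1 (SE 0.17, adjusted p = 0.512) and by -0.29 with shRNA2 (SE 0.17, adjusted p = 0.297), and it passed with the replicate block for shRNA2 (adjusted p = 0.0441) and for the average of both hairpins (0.0449). Mitf differed by -0.14 with shRNA1 and by -0.12 with shRNA2 (SE 0.27 each, adjusted p = 0.779 and 0.808).

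**Figure D1:**
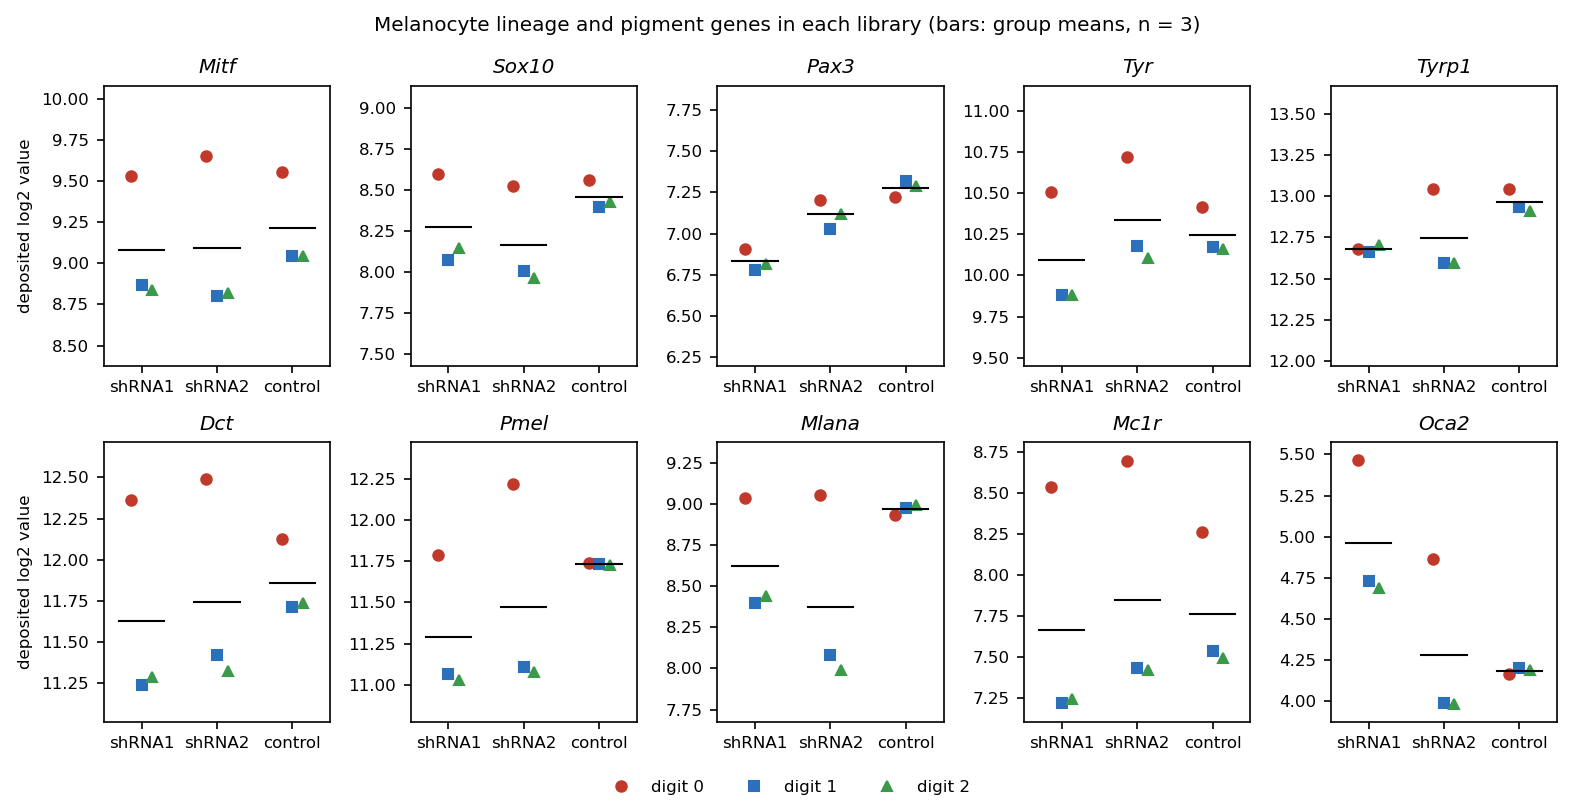
Deposited log2 value of each of the 10 genes in each library, by line (shRNA1, shRNA2, control) and replicate digit (colours); bars are group means of 3 libraries, and every panel spans the same log2 range. In most panels the digit 0 library stands apart from digits 1 and 2, which lie close together, as for Mc1r with shRNA1 (8.53 at digit 0, 7.22 and 7.25 at digits 1 and 2).

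Among the melanin enzymes, Tyr (chromosome 7, 87424771 to 87493512, minus strand) had log2 values of 10.51, 9.88 and 9.88 with shRNA1, 10.72, 10.18 and 10.11 with shRNA2, and 10.42, 10.17 and 10.16 with the control hairpin, in the order of digits 0, 1 and 2. Dct (chromosome 14, 118012790 to 118052244, minus strand) had 12.36, 11.24 and 11.29 with shRNA1, 12.49, 11.42 and 11.32 with shRNA2, and 12.12, 11.71 and 11.74 with the control hairpin. For both enzymes digit 0 was the highest of each group and was highest of all in the Decr2 hairpin lines, while digits 1 and 2 of shRNA1 were lower than those of the control line. Tyrp1 (chromosome 4, 80834123 to 80851719, plus strand) had 12.68, 12.66 and 12.70 with shRNA1, 13.04, 12.60 and 12.60 with shRNA2, and 13.05, 12.94 and 12.91 with the control hairpin. Its digit 0 library was again the highest with shRNA2 and the control hairpin, but not with shRNA1. All shRNA1 libraries were below every control library for Tyrp1, digit 0 included, as in 16.6% of all genes. None of the 3 enzymes passed over all digits: with shRNA1 the differences were -0.16 for Tyr, -0.23 for Dct and -0.28 for Tyrp1 (adjusted p = 0.651, 0.716 and 0.193), and with shRNA2 they were 0.09, -0.11 and -0.22 (adjusted p = 0.825, 0.871 and 0.306). Without shRNA2 replicate 0, Tyrp1 passed with shRNA2 (-0.37, adjusted p = 0.0393) and in the average of both hairpins (-0.33, adjusted p = 0.0203).

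The melanosome antigens were split by digit in both Decr2 hairpin lines. Pmel (chromosome 10, 128704195 to 128720238, plus strand) had log2 values of 11.79, 11.07 and 11.03 with shRNA1, 12.22, 11.11 and 11.08 with shRNA2, and 11.74, 11.74 and 11.73 with the control hairpin. The control libraries were nearly equal at all digits, whereas in each Decr2 hairpin line digit 0 was above them and digits 1 and 2 were below. Mlana (chromosome 19, 29697824 to 29708634, plus strand) had 9.03, 8.40 and 8.44 with shRNA1, 9.06, 8.08 and 7.99 with shRNA2, and 8.93, 8.97 and 8.99 with the control hairpin, which is the same order. Over all digits, Pmel differed from control by -0.44 with shRNA1 and -0.27 with shRNA2 (SE 0.30 each, adjusted p = 0.372 and 0.615). Mlana differed by -0.34 with shRNA1 and -0.59 with shRNA2 (SE 0.27 each, adjusted p = 0.438 and 0.179); with shRNA2 it passed with the replicate block (adjusted p = 0.047) and without shRNA2 replicate 0 (-0.93, adjusted p = 0.0171), without which it also passed in the average (-0.64, adjusted p = 0.0198). In GRCm38 the Pmel gene overlaps Cdk2 by 837 bases and Dgka by 105 bases on the opposite strand, and the sources do not give a strand setting, so reads of the shared bases cannot be assigned with certainty.

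Mc1r, the receptor for melanocyte-stimulating hormone, lies on chromosome 8 from 123407107 to 123410744 on the plus strand. It had log2 values of 8.53, 7.22 and 7.25 with shRNA1, 8.69, 7.43 and 7.42 with shRNA2, and 8.26, 7.54 and 7.50 with the control hairpin. The libraries of digit 0 were the highest of every group by a wide margin, and the groups overlapped, with differences from control of -0.10 with shRNA1 and 0.08 with shRNA2 (SE 0.43 each, adjusted p = 0.905 and 0.923). The whole Mc1r gene lies within the span of Gm20388 on the same strand, so the counting could split their reads; Gm20388 itself ran from 6.36 to 6.66 over the 9 libraries, and its part in the Mc1r values was not tested. Oca2 (chromosome 7, 56239760 to 56536518, plus strand) had 5.46, 4.73 and 4.69 with shRNA1, 4.86, 3.99 and 3.98 with shRNA2, and 4.16, 4.20 and 4.19 with the control hairpin. All 3 shRNA1 libraries were above every control library, while with shRNA2 digit 0 was above control and digits 1 and 2 were below. All shRNA1 libraries lay above every control library in 17.3% of all genes. With shRNA1 the difference of Oca2 from control was 0.78 (SE 0.26, adjusted p = 0.0874). It passed once the digit was blocked (adjusted p = 0.0145) or shRNA2 replicate 0 was left out (adjusted p = 0.0345). With shRNA2 the difference was 0.09 (SE 0.26, adjusted p = 0.854).

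The lines with shRNA1 and shRNA2 were not told apart by the members over all digits: 0 of 10 passed, where 0.455% of all genes did, and 2 members (Pax3 and Oca2) passed an unadjusted p of 0.05, where 10% of all genes did. The difference of shRNA2 over shRNA1 was -0.68 for Oca2 (95% interval -1.27 to -0.09, adjusted p = 0.413). For Mitf it was 0.01 (95% interval -0.59 to 0.62), and for Mc1r 0.18 (-0.79 to 1.16). Pax3 was the member whose libraries did not overlap between these lines, as in 14.4% of all genes in either direction.

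More members were called by replicate digit than by hairpin over all digits, where the hairpin fit had no term for the digit. With the replicate block 2 members were called with each hairpin. Without the digit 0 libraries 10 were called with shRNA1 and 7 with shRNA2, where 34.5% and 37.3% of all genes were. In a limma fit with terms for line and digit, 8 of the 10 members were higher at digit 0 than in the mean of digits 1 and 2, where 12.1% of all genes were called higher, and 0 were lower, where 11.4% of all genes were. Mc1r rose most, by 1.10 (SE 0.10, adjusted p = 0.000625), followed by Dct at 0.87 (SE 0.13, adjusted p = 0.00377), Mitf at 0.67 (SE 0.07, adjusted p = 0.000975) and Pmel at 0.63 (SE 0.17, adjusted p = 0.0292). Oca2 rose by 0.53, Mlana by 0.53, Tyr by 0.48 and Sox10 by 0.39. Pax3 (0.05, adjusted p = 0.552) and Tyrp1 (0.19, adjusted p = 0.155) did not pass. The median member was 0.53 higher at digit 0, beside 0.01 over all genes tested. For Mitf, Sox10, Tyr, Dct, Mc1r and Pmel the digit 0 library was the highest of its line in all 3 lines, as in 19.6% of all genes.

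Of these 8 calls, those for Mitf, Tyr, Dct and Mc1r held with each library left out in turn (largest adjusted p = 0.0367). Sox10 was lost without shRNA2 replicate 0 (adjusted p = 0.0638). Pmel (adjusted p from 0.0585 to 0.138), Mlana (0.0834 to 0.205) and Oca2 (0.0741 to 0.183) were lost without any 1 of the 6 Decr2 hairpin libraries, and held without any 1 control library. Without shRNA2 replicate 0 the digit difference was 0.38 for Pmel, 0.28 for Mlana and 0.36 for Oca2. Without any 1 of the other 5 Decr2 hairpin libraries it was 0.56 to 0.61 for Pmel, 0.45 to 0.53 for Mlana and 0.42 to 0.51 for Oca2. In the control line these 3 genes hardly differed by digit: digit 0 minus the mean of digits 1 and 2 was 0.01 for Pmel, -0.05 for Mlana and -0.03 for Oca2. No label says that digit 0 was prepared apart, and its cause was not tested. Library medians were 5.35 to 5.38 in all 9 libraries.

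**Figure D2:**
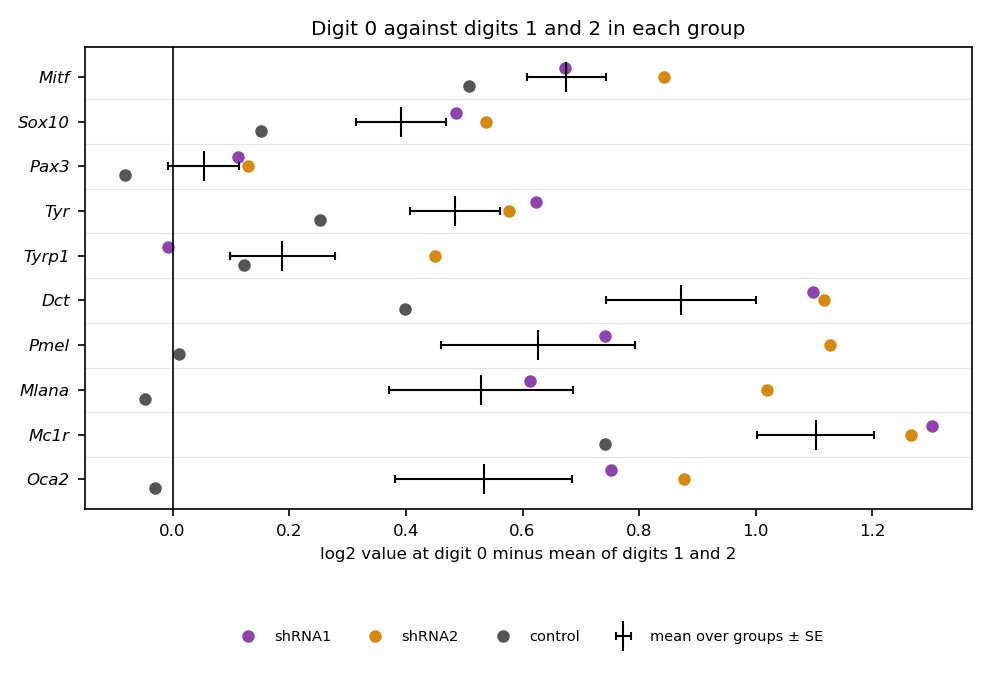
Log2 value at digit 0 minus the mean of digits 1 and 2 for each gene in each line (points) and its mean over the lines with the standard error of the limma fit (black). Points of the Decr2 hairpin lines lie to the right of the control points for 9 of the 10 genes, Tyrp1 with shRNA1 being the exception, and the control points of Pmel, Mlana and Oca2 lie near 0.

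For most members the digit 0 excess was larger in the Decr2 hairpin lines than in the control line. At digit 0, Mc1r was 2.46-fold its mean at digits 1 and 2 with shRNA1, 2.41-fold with shRNA2 and 1.67-fold with the control hairpin. For Dct these folds were 2.14 with shRNA1, 2.17 with shRNA2 and 1.32 with the control hairpin, and for Pmel they were 1.67, 2.18 and 1.01. The median member stood 0.65 higher at digit 0 with shRNA1, 0.86 higher with shRNA2 and 0.14 higher with the control hairpin (log2). A test of this difference, the mean hairpin difference at digit 0 minus that at digits 1 and 2, was chosen after the values were seen. It called 7 of the 10 members higher in limma, where 2.42% of all genes were called higher and 2.83% lower: Pmel (0.92, SE 0.06, adjusted p = 0.000516), Mlana (0.86, adjusted p = 0.001), Oca2 (0.85, adjusted p = 0.00734), Dct (0.71, adjusted p = 0.00192), Mc1r (0.54, adjusted p = 0.0059), Sox10 (0.36, adjusted p = 0.0321) and Tyr (0.35, adjusted p = 0.0257). For each hairpin alone, this difference was above 0 for 9 of the 10 members with shRNA1 and for 10 with shRNA2. The member medians were 0.47 and 0.46, and 5372 and 5420 of all 10762 genes were above 0. Each line has 1 library of digit 0, so the test assumes that this library varies like those of digits 1 and 2. Sox10 was lost without shRNA1 replicate 1 (adjusted p = 0.0539), control replicate 1 (0.114) or control replicate 2 (0.132), Tyr without control replicate 1 (0.124) or 2 (0.114), and Mitf passed without shRNA2 replicate 1 (0.0474).

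The direction of the hairpin differences was not the same at every digit. At digit 0, 7 of 10 members were above control with shRNA1 and 7 of 10 with shRNA2, with medians of 0.07 and 0.21. At digit 1, 9 of 10 were below control with shRNA1 and 9 of 10 with shRNA2, and at digit 2, 9 of 10 were with shRNA1 and 10 of 10 with shRNA2. The exceptions were Oca2 with shRNA1 and, at digit 1 with shRNA2, Tyr (0.01). Both Decr2 hairpin libraries of a digit share 1 control library, and the 10 genes are not independent replicates. Over all genes, between 49.7% and 51.3% were above control at any digit with either hairpin.

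**Figure D3:**
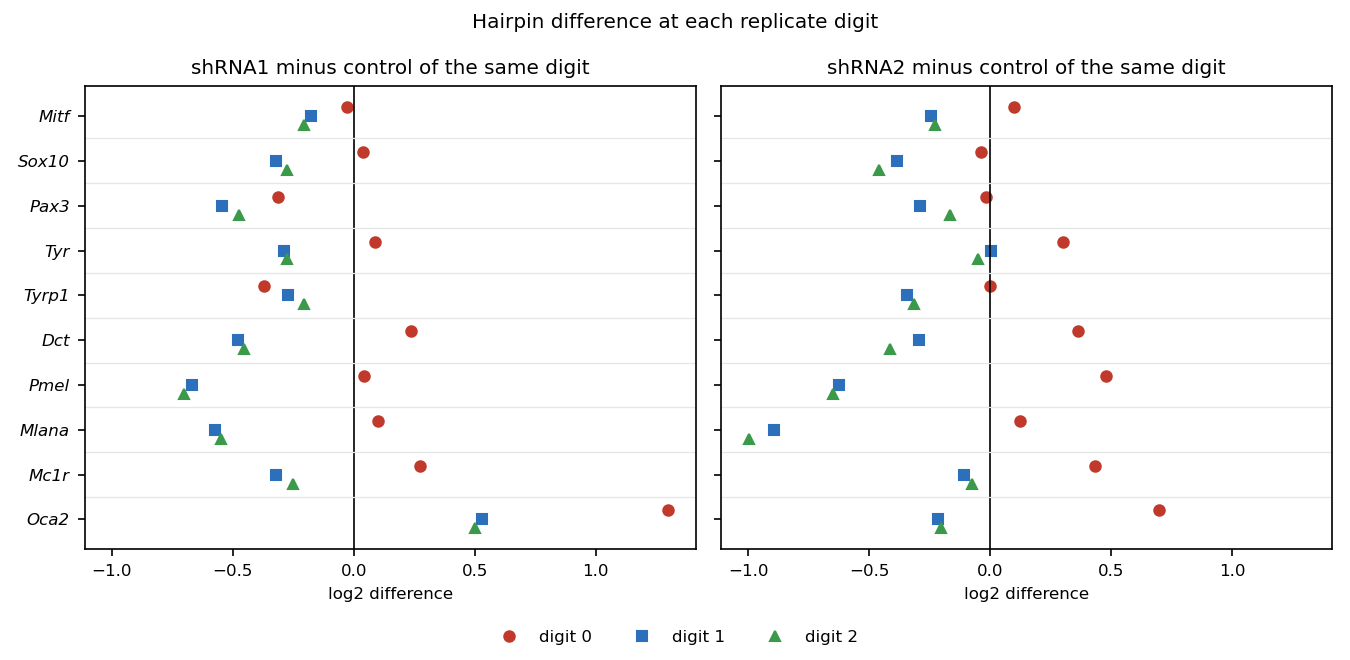
Log2 difference of each Decr2 hairpin library from the control library of the same digit (shRNA1 left, shRNA2 right; colours give the digit) for each gene. Points of digits 1 and 2 lie left of 0 and close together for most genes, and the digit 0 point lies further right in every row except Tyrp1 with shRNA1 (-0.37 at digit 0, -0.27 and -0.21 at digits 1 and 2).

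With the 3 libraries of digit 0 left out, most members fell with the Decr2 hairpins. With shRNA1, 9 of 10 members were lower and 1 higher in limma, where 16.9% of all genes were called lower and 17.6% higher. With shRNA2, 7 were lower and 0 higher, where 18.1% of all genes were called lower and 19.2% higher. Mlana fell by 0.56 with shRNA1 (SE 0.05, adjusted p = 0.000141) and by 0.95 with shRNA2 (SE 0.05, adjusted p = 9.39e-06). Pmel fell by 0.69 with shRNA1 and by 0.64 with shRNA2 (SE 0.04 each). Sox10 fell by 0.30 and 0.42, Dct by 0.46 and 0.35, and Mitf by 0.19 and 0.24, with shRNA1 and shRNA2 in that order. Tyr and Mc1r fell by 0.28 each with shRNA1 (adjusted p = 0.00231 and 0.00335) and did not pass with shRNA2 (-0.02 and -0.09, adjusted p = 0.728 and 0.184). Oca2 rose by 0.52 with shRNA1 (adjusted p = 0.0021) and was at -0.21 with shRNA2 (adjusted p = 0.0748). In this fit the lines also differed from each other in 5 members, against 8.87% of all genes: Pax3, Tyr and Mc1r were higher with shRNA2, and Mlana and Oca2 were lower. It rests on 2 libraries a line, which differed from each other by at most 0.10 for any member, and whether digits 1 and 2 came from separate cultures is not stated.

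The members also differed in how far they moved together. The mean of the 10 genes, each centred on its own mean, was 0.37 at digit 0 with shRNA1, 0.48 with shRNA2 and 0.24 with the control hairpin, and it lay between -0.32 and -0.26 in the other Decr2 hairpin libraries and at 0.04 and 0.03 in the other control libraries. As a description over the 9 libraries, which share digits and lines, the correlation of a member with the mean of the other members was 0.98 for Dct, 0.96 for Mitf, 0.93 for Sox10 and 0.93 for Pmel, and it was lowest for Oca2 (0.39) and Pax3 (0.33). The 6 genes outside the list most like this mean were Slc45a2 (r = 0.990), a melanosomal transporter, 5031439G07Rik (0.988), the lysosomal membrane protein gene Gpr137b (0.984), the cytokine receptor chain Il10rb (0.983), Rpusd1 (0.983) and the circadian repressor Bhlhe41 (0.982), each over 9 libraries. Of 10740 genes compared, 187, or 1.74%, exceeded 0.9. Slc45a2 had log2 values of 9.32, 8.27 and 8.31 with shRNA1, 9.42, 8.27 and 8.18 with shRNA2, and 8.97, 8.87 and 8.86 with the control hairpin, so its digit 0 libraries were highest in each line and its digits 1 and 2 were lowest in the Decr2 hairpin lines.

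Other genes of melanosomes and pigment were also called more by digit than by hairpin over all digits. Of 41 such genes, all measured, 3 were higher and 1 was lower in the average of both hairpins against control, where 9.69% of all genes were called higher and 7.89% lower, and the list median was -0.02. The 3 were Snapin (0.37), a subunit of the BLOC-1 complex, Mgrn1 (0.30) and Furin (0.30). Mgrn1 is a ubiquitin ligase that acts against melanocortin signalling, and Furin is a protease that cleaves PMEL. Vps33a, a vesicle fusion factor, fell by 0.53 and passed with each hairpin alone. Snapin and Furin did not pass with shRNA2 (limma adjusted p = 0.0508 and 0.189), nor Mgrn1 with shRNA1 (0.0753). At digit 0 against digits 1 and 2, 15 of the 41 were higher and 0 lower, beside 12.1% and 11.4% of all genes, with a list median of 0.19. Named after their values were seen, they included Mlph (1.40) and Rab27a (0.99), which tether melanosomes to myosin Va, the channel Trpm1 (1.22), the glycoprotein Gpnmb (0.84), the transporters Slc45a2 (0.77) and Slc24a5 (0.57), and the melanosomal receptor Gpr143 (0.59). The 41 include 13 subunits of the AP-3 and BLOC-1 complexes, a group also chosen after values were seen. Of these 13, 0 were called higher and 0 lower at digit 0, with a median of -0.02. With the replicate block, 4 of the 41 rose and 4 fell in the average of both hairpins, where 16.2% of all genes were called higher and 14.1% lower. Without the libraries of digit 0, 6 rose and 12 fell, where 20.9% of all genes were called higher and 20.5% lower.

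Lineage genes and MITF targets were measured for 28 of 42 listed. In the average of both hairpins 3 were higher and 0 lower, beside 9.69% and 7.89% of all genes, and the list median was 0.02. The 3 were Mbp (1.17), which encodes myelin basic protein, the cadherin Cdh19 (0.57) and Hmox1 (0.53), a haem oxygenase. Cdh19 passed with each hairpin alone, while Mbp and Hmox1 did not pass with shRNA2 (limma adjusted p = 0.0504 and 0.0928). For Mbp the mean hairpin difference at digit 0 minus that at digits 1 and 2 was -1.19. With the replicate block 8 were higher and 2 lower (16.2% and 14.1% of all genes), and without the libraries of digit 0, 9 were higher and 8 lower (20.9% and 20.5% of all genes). At digit 0 against digits 1 and 2, 11 were higher and 2 lower, beside 12.1% and 11.4% of all genes. Chosen after their values were seen, the higher ones included S100b (1.48), a calcium-binding protein of melanocytes and glia, Cdk2 (1.06), Tspan10 (1.03) and the receptor Erbb3 (0.83), and Id3, an inhibitor of helix-loop-helix factors, was lower (-2.67). Cdk2 shares bases with Pmel on the other strand, as given above.

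Genes of melanocortin and cyclic AMP signalling, Mc1r left out, were measured for 30 of 37. In the average of both hairpins 4 rose and 2 fell, beside 9.69% and 7.89% of all genes, with a list median of -0.02. Pde4d rose by 0.48, Crem by 0.45, Mgrn1 by 0.30 and Usf2 by 0.23. Sik1, a kinase that restrains CREB coactivators, fell by 0.68, and Prkar2a, a regulatory subunit of protein kinase A, by 0.43. Pde4d, Usf2, Sik1 and Prkar2a passed with shRNA1 only, and Crem and Mgrn1 with shRNA2 only. With the replicate block 6 rose and 5 fell (16.2% and 14.1% of all genes), and without the libraries of digit 0, 6 rose and 6 fell (20.9% and 20.5% of all genes). At digit 0 against digits 1 and 2, 5 were higher and 5 lower, beside 12.1% and 11.4% of all genes. Genes of dedifferentiated melanoma cells, a state with low pigment gene expression, were listed under 33 symbols, and 17 were measured. Ccn1, Ccn2 and Pou3f2 were each listed under an older symbol as well. In the average of both hairpins limma called 0 higher and 4 lower, beside 9.69% and 7.89% of all genes. At an unadjusted p under 0.05, 1 was higher (17.5% of all genes). Ccn2, a secreted matricellular protein, fell by 2.54 (SE 0.18, adjusted p = 0.000254), and Tead4, a Hippo pathway transcription factor, fell by 0.69. The neurotrophin receptor Ngfr fell by 0.68 and Sparc, a matrix glycoprotein, fell by 0.43. Ccn2 and Tead4 passed with each hairpin alone, while Sparc and Ngfr did not pass with shRNA2 (limma adjusted p = 0.103 and 0.443). Ngfr differed by -1.09 with shRNA1 and by -0.27 with shRNA2. Its mean hairpin difference at digit 0 minus that at digits 1 and 2 was -1.08. The median of that list was -0.24. With the replicate block 0 of its genes rose and 6 fell (16.2% and 14.1% of all genes). Without the libraries of digit 0, 3 of its genes rose and 8 fell (20.9% and 20.5% of all genes). At digit 0 against digits 1 and 2, 3 were higher and 4 lower, beside 12.1% and 11.4% of all genes.

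**Figure D4:**
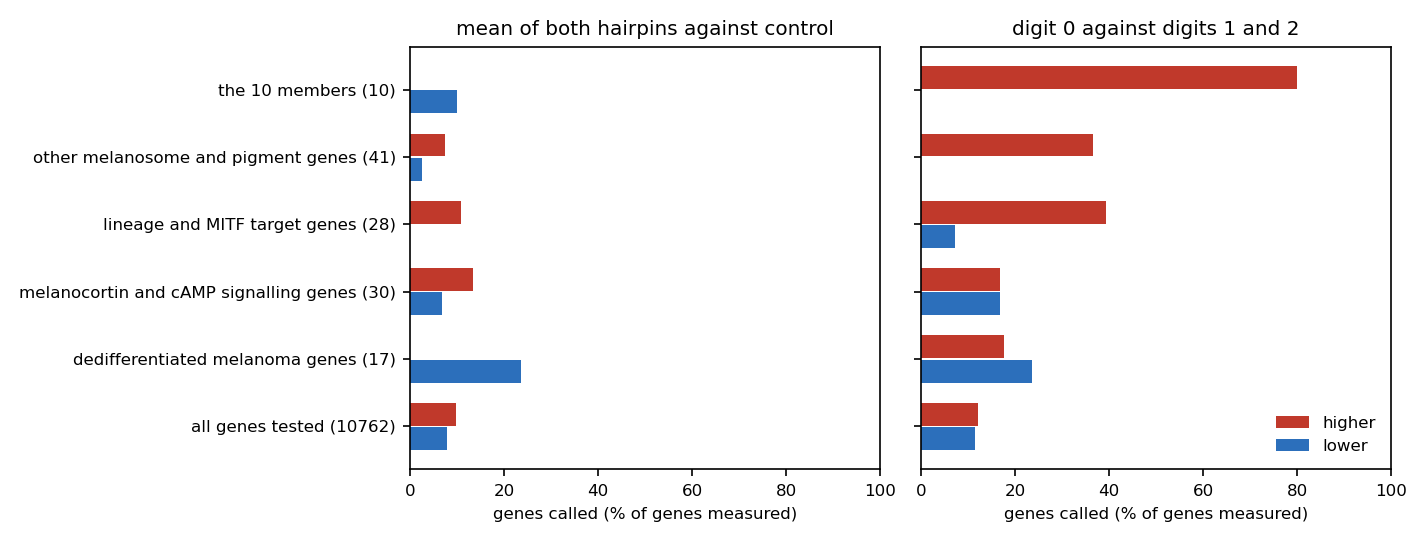
Share of measured genes called higher (red) or lower (blue) at an adjusted p under 0.05 in each gene list and in all genes, for the mean of both hairpins against control (left) and digit 0 against digits 1 and 2 (right); numbers in brackets are genes measured. For the hairpins, 1 of the 10 members was called, lower, and at digit 0, 8 of 10 were, higher. The hairpin fit shown had no term for the digit, and with the replicate block 2 members were called, lower.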

How the data were processed

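Libraries were grouped by the sample titles. The authors deposited 1 table holding a log2 expression value per gene and library. Per the file headers it also holds the authors' log2 fold changes, t scores and p-values for each hairpin. Kallisto, FastQC and limma are named without versions in the submitters' processing notes; genome build, annotation and strand setting were not found in the labels or headers. Column codes do not spell out the hairpin. It was read from the authors' headed fold changes, which lay within 0.05 of the columns assigned to shRNA1 in 99.95% of genes and to shRNA2 in 99.7%; were those headings exchanged, so would be the hairpin names here. In addition, 1 unnamed column with 19 values was not used. Depth is unknown, so no counting error is given.

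Symbols came from Ensembl identifiers (10759 matched); coordinates are GENCODE M21 on GRCm38. The deposited log2 values of all 10762 genes and 9 libraries were fitted in limma 3.58.1 (R 4.3.3), with a mean per line, an intensity trend, 6 residual and 3.30 prior degrees of freedom, and no filter or pseudocount; the code was tested on simulated data. Adjusted p-values (Benjamini-Hochberg) below 0.05 were called. Terms for line and digit gave the digit differences. Deviations of same-digit libraries from their line means correlated at 0.126 to 0.644. By digit they correlated at 0.387 to 0.644 (digit 0), 0.126 to 0.22 (digit 1) and 0.197 to 0.505 (digit 2). Deviations of digit 1 correlated with those of digit 2 of other lines at 0.128 to 0.531. These values set digit 0 apart and do not show that digits 1 and 2 pair the libraries. Alternatives were a replicate block, removal of the lowest 25% of genes, centred libraries, only the lines compared, each library left out, and all digit 0 libraries left out. The members and lists were chosen with earlier results of these data known. All members are named, as are up to 6 called genes of each list by adjusted p in the average of both hairpins and the 6 genes most like the members' mean.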

Additional observations from a re-analysis of the deposited data

Results flagged for a closer look

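The mean log2 difference of the Decr2 hairpin lines from control was more positive at digit 0 than at digits 1 and 2 for 7 members. This came from a limma interaction test chosen after the data were seen, which compares signed differences and not their size. On the log2 scale the digit 0 difference exceeded the other by 0.92 for Pmel, 0.86 for Mlana, 0.85 for Oca2, 0.71 for Dct, 0.54 for Mc1r, 0.36 for Sox10 and 0.35 for Tyr (adjusted p from 0.000516 to 0.0321), where 2.42% of all genes were called higher and 2.83% lower. Sox10 lost the call without shRNA1 replicate 1 (adjusted p = 0.0539), control replicate 1 (0.114) or control replicate 2 (0.132), and Tyr lost it without control replicate 1 (0.124) or control replicate 2 (0.114). For Pmel, Mlana, Dct and Mc1r both hairpins were above control at digit 0 and below it at digits 1 and 2. The test rests on 1 digit 0 library a line.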

How the results depend on the processing

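Removing the lowest 25% of genes or centring the libraries kept the counts of called members as reported for the hairpins, the digit and the digit 0 excess. Fitting only the lines compared, run for shRNA1, shRNA2 and shRNA2 against shRNA1, kept their counts of called members, although all genes called came to 675 with shRNA1 (1336 as reported) and 6 for shRNA2 against shRNA1 (49). With the replicate block, members called were 2 with shRNA1, 2 with shRNA2 and 2 in the average of both hairpins, and all genes called were 2646, 2583 and 3263, with 201 for shRNA2 against shRNA1. The block gave 8 called melanosome genes (4 as reported), 10 lineage genes (3) and 11 melanocortin and cyclic AMP genes (6). It changed no other count by over 1.5 times.

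Without the digit 0 libraries, members called were 10 with shRNA1, 7 with shRNA2, 9 in the average and 5 for shRNA2 against shRNA1, and all genes called were 3711, 4011, 4452 and 955. The lists had 18 melanosome, 17 lineage, 12 melanocortin and cyclic AMP and 11 dedifferentiated genes called. The sign turned for Mc1r (-0.091), Oca2 (-0.21) and Tyr (-0.022) with shRNA2, and for Mitf (-0.044) and Tyrp1 (-0.089) for shRNA2 against shRNA1; the cause was not tested.

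With 1 library left out at a time, members called ranged from 1 to 2 with shRNA1, 0 to 2 with shRNA2, 0 to 3 in the average, 0 to 0 for shRNA2 against shRNA1, 4 to 8 for the digit and 5 to 8 for the digit 0 excess of the hairpin difference. All genes called ranged from 328 (without control replicate 2) to 1579 with shRNA1, 406 (without control replicate 2) to 2450 (without shRNA1 replicate 0) with shRNA2, 616 (without control replicate 1) to 2642 in the average, 3 to 94 (without shRNA1 replicate 0) for shRNA2 against shRNA1, 1038 (without shRNA2 replicate 0) to 3089 for the digit and 160 (without control replicate 2) to 992 (without shRNA2 replicate 1) for the excess. Differences whose sign turned with shRNA1 ranged from -0.53 to 0.15 for Mc1r and -0.36 to 0.033 for Mitf. With shRNA2 they ranged from -0.49 to 0.10 for Dct, -0.34 to 0.33 for Mc1r, -0.40 to 0.046 for Mitf, -0.20 to 0.24 for Oca2 and -0.11 to 0.20 for Tyr. In the average they ranged from -0.22 to 0.24 for Mc1r, -0.27 to 0.039 for Mitf and -0.14 to 0.048 for Tyr. For shRNA2 against shRNA1 they ranged from -0.26 to 0.48 for Dct, -0.24 to 0.62 for Mc1r, -0.27 to 0.24 for Mitf, -0.20 to 0.42 for Pmel, -0.29 to 0.055 for Sox10 and -0.087 to 0.14 for Tyrp1. None of these had passed the test as reported. The digit 0 excess could not be fitted without a digit 0 library of any line. Depth is unknown, so its effect on these values was not tested.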
